A study of Ovis aries with 20 samples.

Results

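Mitochondria make most of the ATP of heart muscle, and around birth the heart turns from glucose and lactate towards fatty acids as fuel. The 7 genes described here serve that machinery: ATP5MC2 and ATP5PO encode parts of the ATP synthase, GLUD1 and BCKDHA encode enzymes of amino acid breakdown, IDH1 encodes an NADP-dependent isocitrate dehydrogenase outside the mitochondrion, SFXN1 encodes a serine carrier of the mitochondrial inner membrane, and PPARGC1A encodes a transcriptional coactivator known for driving mitochondrial biogenesis. They were chosen by name, older names included. They were read by 12 probes of 15008 on the array, and 867 genes could be named in all. ATP5MC2, ATP5PO, IDH1 and BCKDHA had 1 probe each, SFXN1 had 2, and GLUD1 and PPARGC1A had 3 each.

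RNA came from 2 heart walls of singleton newborn sheep, the left ventricle (LV) and the septum between the ventricles, and was measured on 20 one-colour Agilent arrays. Ewes had been infused with cortisol at 1 mg/kg per day, or with vehicle, from about day 115 of gestation until birth, and the lambs were killed between 10 and 480 minutes after birth. The sample titles carry the word telemetry for every lamb of every group. Each wall had 5 control arrays and 5 cortisol arrays, 4 groups in all. Whole tissue was used, so fewer cells of a type and less RNA per cell cannot be told apart. The time after birth of each lamb was not used here.

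Levels are log2 of the processed spot intensity minus the 75th percentile of that array, so a difference of 1 is a doubling. The probe with the highest mean over 20 arrays leads for each gene, and levels of different probes are not set against each other. All 12 probes were well above background on 20 of 20 arrays. None of the member spots was saturated. Between 57.9% and 72.1% of the spots of an array were well above background. Of 4 slides, slide 1 carried 6 arrays of septum and slide 3 carried 6 of LV. Slide 2 carried 7 arrays from both walls, and slide 4 the LV array of cortisol lamb 4 alone. Region was therefore largely confounded with slide. The heart muscle markers MB (myoglobin) and TPM1 (tropomyosin) were well above background, at 7.87 to 8.87 and 6.78 to 8.78 on the log2 scale on the arrays whose spots were not left out as outliers.

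Several genes are read by more than one probe, so the probe sequences are shown for the coding stretches that carry the results. They are given 5′ to 3′ as in the scanner files, in lower case. Capitals mark bases that another probe of the same gene shares. The lead probe and probe 2 of GLUD1 cover nearly the same stretch, 59 of 60 bases, and are not independent of each other. The third GLUD1 probe has another sequence.
GLUD1 lead probe: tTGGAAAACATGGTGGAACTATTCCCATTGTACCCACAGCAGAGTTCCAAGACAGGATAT
GLUD1 probe 2: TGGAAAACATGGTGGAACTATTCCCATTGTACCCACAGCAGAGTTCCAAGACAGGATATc
GLUD1 probe 3: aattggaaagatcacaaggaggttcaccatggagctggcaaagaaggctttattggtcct
BCKDHA probe: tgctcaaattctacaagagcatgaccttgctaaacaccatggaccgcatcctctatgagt
SFXN1 probe 2: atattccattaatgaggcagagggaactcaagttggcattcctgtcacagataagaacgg
The lead and second probes of PPARGC1A overlap by 28 bases, and the third has another sequence. The files name the lead and second probes pgc1, which is taken here as PPARGC1A.
PPARGC1A lead probe: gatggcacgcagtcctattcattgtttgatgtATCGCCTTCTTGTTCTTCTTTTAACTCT
PPARGC1A probe 2: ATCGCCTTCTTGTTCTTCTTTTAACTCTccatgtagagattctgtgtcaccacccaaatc
PPARGC1A probe 3: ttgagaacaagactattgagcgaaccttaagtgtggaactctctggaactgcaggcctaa

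PPARGC1A varied more between lambs of one group than almost any other transcript well above background. Its lead probe spanned 0.16 to 4.89 over the 20 arrays, a 26.5-fold range. In LV it read 1.73, 2.23, 4.15, 1.32 and 3.53 in control lambs 1 to 5, and 4.89, 2.10, 4.12, 0.23 and 1.36 in cortisol lambs 1 to 5. In septum the same lambs read 1.53, 2.05, 3.62, 1.02 and 2.43 (control) and 3.70, 1.94, 4.67, 0.16 and 1.05 (cortisol). High and low lambs occurred under both treatments, and cortisol lamb 4 was the lowest in both walls. The standard deviation within groups was 1.61 in LV, larger than that of 99% of probes, and 1.49 in septum, larger than that of 98.7%. The median over all probes was 0.42 and 0.40. The 3 PPARGC1A probes ranked the lambs alike, with Pearson r of 0.95 to 1.00 between them in LV and 0.96 to 1.00 in septum over 10 arrays.

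The PPARGC1A level of a lamb was shared by its walls. The LV array and the septum array that share a treatment and a number were taken as one lamb, a pairing read from the data. Each of the 10 LV arrays was set against the septum arrays of its treatment. Its highest residual correlation was with its own partner (r 0.447 to 0.813 across probes). The pairing thus rests on agreement between walls, and the tests of that agreement below are not independent of it. Over the 10 lambs the PPARGC1A level in septum followed that in LV with Pearson r = 0.94 (permutation p = 5e-05, two-sided, Benjamini-Hochberg adjusted p = 0.00112 over 9929 probes) and Spearman rho = 0.96 (permutation p = 3e-05). Without the 2 lambs farthest from the median LV level r was 0.94. Agreement between walls was common: the median r over all probes was 0.72, and 54.5% of probes passed the same test. Among the other lead probes r was 0.80 for GLUD1, 0.78 for BCKDHA, 0.65 for IDH1, 0.62 for ATP5PO, 0.60 for ATP5MC2 and 0.59 for SFXN1, and of these GLUD1 and BCKDHA passed (adjusted permutation p = 0.0133 and 0.0155).

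**Figure D1:**
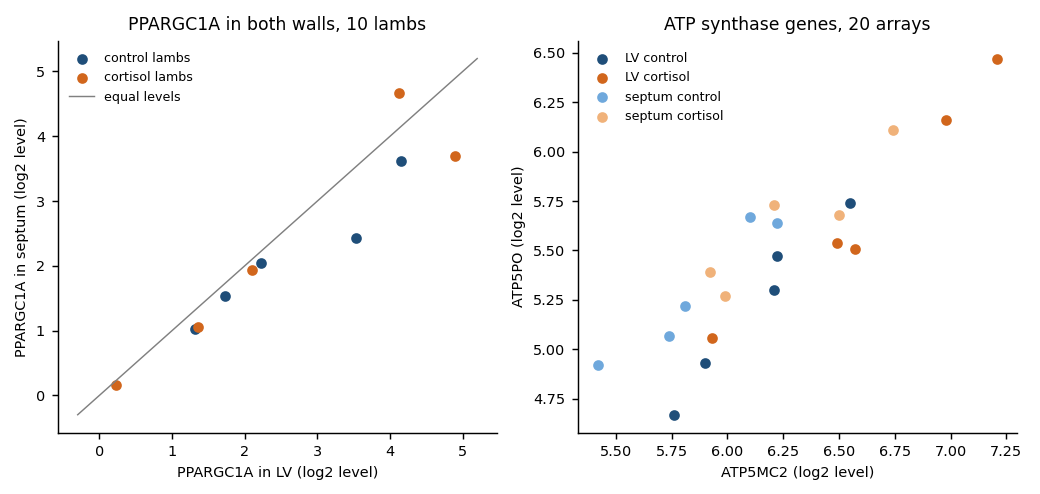
Left, PPARGC1A log2 level in LV (x axis) against septum (y axis), 1 point per lamb, with the line of equal levels. The 10 lambs rise from 0.23 and 0.16 in cortisol lamb 4 upwards, and 9 of 10 lie below the line. Right, ATP5MC2 (x axis) against ATP5PO (y axis) log2 levels on the 20 arrays; the genes rise together, with Pearson r of 0.98 in LV and 0.95 in septum.

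No member passed the test between cortisol and control in either wall. With limma and Benjamini-Hochberg adjustment over all probes, 0 of 9791 probes (0%) passed in LV and 0 of 10369 (0%) in septum. At an unadjusted p under 0.05 the counts were 508 and 385 probes. The control and cortisol ranges overlapped for 12 of 12 member probes in each wall, against 0.723% of all probes that did not overlap in LV and 0.377% in septum.

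**Figure D2:**
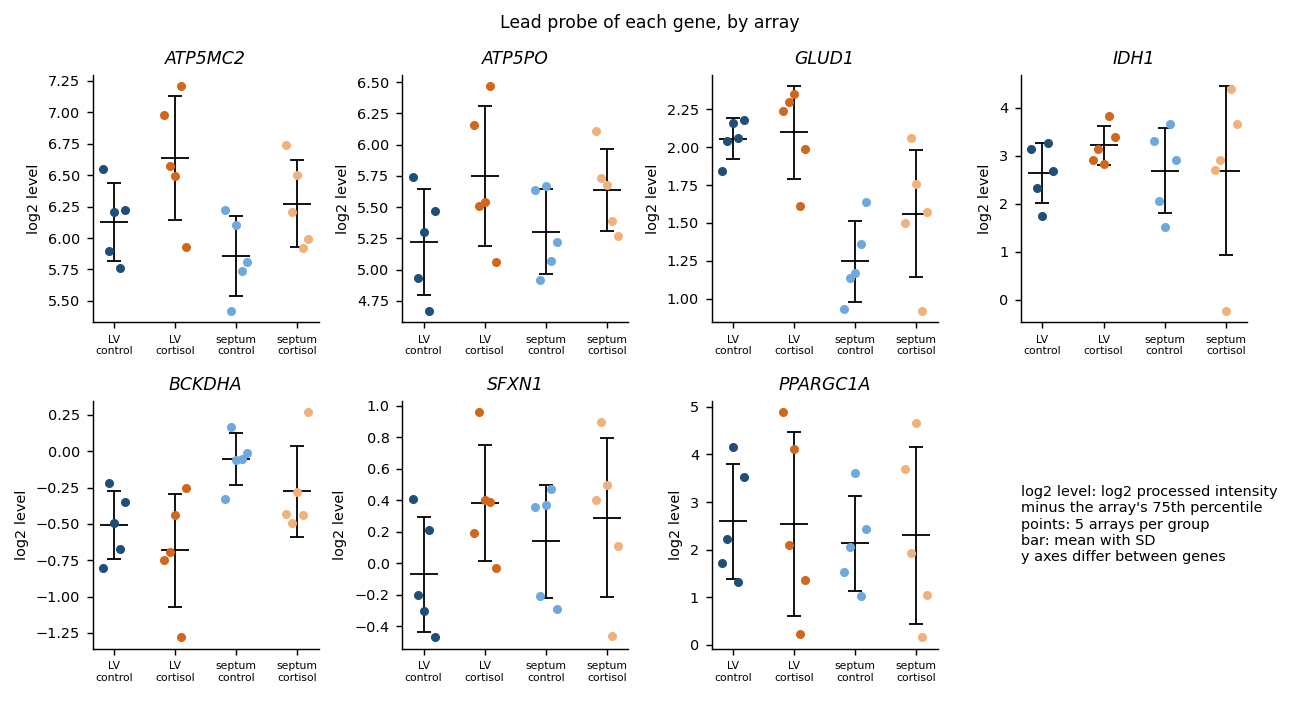
Log2 level (y axis, own scale for each gene) of the lead probe of the 7 genes in the 4 groups; points are the 5 arrays of a group and the bar is the mean with SD. Control and cortisol points overlap for every gene in each wall, and the GLUD1 points of septum control, 0.93 to 1.64, lie below those of LV control, 1.84 to 2.18.

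The ATP synthase members ATP5MC2 and ATP5PO gave positive differences in both walls that did not pass the test. ATP5MC2 encodes the membrane ring subunit c, through which protons pass. In LV it read 6.55, 5.90, 6.21, 5.76 and 6.22 in control lambs and 6.98, 6.57, 6.49, 7.21 and 5.93 in cortisol lambs. In septum it read 6.22, 5.42, 6.10, 5.74 and 5.81 in control lambs and 6.74, 6.21, 6.50, 5.92 and 5.99 in cortisol lambs. The cortisol group was higher on average in both walls, with overlapping ranges. The difference was 0.51 ± 0.26 (SE, n = 5 per group, limma adjusted p = 0.877) in LV and 0.42 ± 0.21 (limma adjusted p = 0.818) in septum. Averaged over both walls it was 0.46 ± 0.20 (95% interval 0.02 to 0.91, limma unadjusted p = 0.043, adjusted p = 0.812).

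ATP5PO encodes the stalk subunit that joins the catalytic head of the enzyme to its membrane part. It read 5.74, 4.93, 5.30, 4.67 and 5.47 in LV control, 6.16, 5.51, 5.54, 6.47 and 5.06 in LV cortisol, 5.64, 4.92, 5.67, 5.07 and 5.22 in septum control, and 6.11, 5.73, 5.68, 5.39 and 5.27 in septum cortisol. The difference was 0.53 ± 0.30 in LV and 0.33 ± 0.22 in septum (SE, n = 5 per group, limma adjusted p = 0.877 and 0.818). For both genes the highest of the 20 arrays was that of cortisol lamb 4 in LV, the array alone on slide 4. Without it the LV difference was 0.37 for ATP5MC2 and 0.35 for ATP5PO. Within slide 3 the LV differences were 0.61 and 0.62, and within slide 2, with 2 control and 1 cortisol array, they were -0.28 and -0.32. In septum they were 0.69 and 0.63 within slide 1, and 0.00 and -0.11 within slide 2.

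ATP5MC2 and ATP5PO varied together from array to array (Pearson r 0.98 in LV and 0.95 in septum over 10 arrays each), and the genes of nearest pattern included ribosomal protein genes. That order left out the members and used the 20 arrays with the mean of each wall subtracted. Among 515 other named genes, LOC654331 (Pearson r 0.89), annotated as a pancreatitis-associated protein, was most like ATP5MC2. The ribosomal protein genes RPS27A (0.88) and RPS25 (0.87) came next. These r describe 20 arrays from 10 lambs and share the scaling of each array. BCKDHA ran the other way, with r to ATP5MC2 of -0.78 in LV and -0.64 in septum over 10 arrays each. Of the 21 ATP synthase genes listed, 4 were named on the array and tested. The other listed subunits, ATP5MC1 and ATP5PD, gave LV differences of 0.12 ± 0.23 and -0.28 ± 0.29 and septum differences of 0.18 ± 0.17 and 0.26 ± 0.19 (SE). The ATP5PD probe comes from a sequence tag whose strand the files do not give.

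The enzymes of amino acid breakdown did not pass the cortisol test. GLUD1, which releases ammonium from glutamate and feeds the citric acid cycle, differed by 0.04 ± 0.18 (SE, limma adjusted p = 0.975) in LV and 0.31 ± 0.22 (limma adjusted p = 0.818) in septum. Its other probes gave 0.06 and 0.05 in LV and 0.28 and 0.32 in septum. BCKDHA, a subunit of the complex that commits leucine, isoleucine and valine to oxidation, differed by -0.18 ± 0.22 in LV and -0.22 ± 0.18 in septum (limma adjusted p = 0.904 and 0.818). Without the LV array of cortisol lamb 4, the lowest of all at -1.28, the LV difference for BCKDHA was -0.03. BCAT2, which takes the amino group off branched-chain amino acids in the step before BCKDHA, differed by -0.10 ± 0.29 and -0.14 ± 0.34.

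SFXN1 brings serine into mitochondria for one-carbon metabolism. Its lead probe, named from a description by similarity to bovine sideroflexin-1, read 0.41, -0.20, -0.30, 0.21 and -0.47 in LV control and 0.19, 0.96, 0.40, 0.39 and -0.03 in LV cortisol. In septum it read 0.36, -0.21, 0.37, 0.47 and -0.29 in control and 0.40, 0.90, 0.50, -0.46 and 0.11 in cortisol lambs. The difference was 0.45 ± 0.24 in LV and 0.15 ± 0.26 in septum (SE, limma adjusted p = 0.877 and 0.891). The second probe, matched to the sheep SFXN1 transcript, gave 0.36 ± 0.27 in LV and 0.54 ± 0.22 in septum (limma adjusted p = 0.877 and 0.818). The probes correlated with r of 0.67 in LV and 0.47 in septum, less than the probes of the other members did. MTHFD2, a mitochondrial enzyme that uses the one-carbon units made from serine, differed by 0.89 ± 0.43 in LV and 0.75 ± 0.33 in septum (limma unadjusted p = 0.0619 and 0.0425, adjusted p = 0.877 and 0.818). SHMT1, a cytosolic enzyme that takes one-carbon units from serine, gave values of the other sign, -0.67 ± 0.62 in LV and -0.56 ± 0.45 in septum (SE).

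IDH1, which makes NADPH in the cytosol, read 3.15, 2.33, 1.74, 3.27 and 2.69 in LV control and 2.92, 3.13, 2.82, 3.82 and 3.39 in LV cortisol. In septum it read 3.30, 2.06, 1.51, 3.67 and 2.91 in control lambs and 2.71, 2.92, -0.23, 4.39 and 3.67 in cortisol lambs. The septum of cortisol lamb 3 was the lowest of the 20 arrays, with a septum minus LV difference of -3.05 in that lamb. The difference with cortisol was 0.58 ± 0.31 in LV and 0.00 ± 0.76 in septum (SE, limma adjusted p = 0.877 and 1), and without the septum array of cortisol lamb 3 it was 0.73 in septum. In septum the standard deviation of IDH1 within groups, 1.40, was larger than that of 98.4% of the probes well above background. In LV it was 0.53, larger than that of 66.8% of such probes.

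PPARGC1A differed by -0.05 ± 0.87 in LV and 0.17 ± 0.81 in septum (SE, limma adjusted p = 0.991 and 0.963). The spread between lambs left 95% intervals from -1.96 to 1.85 in LV and from -1.61 to 1.96 in septum. Within slides the signs opposed: 1.94 on slide 3 and -2.48 on slide 2 in LV, and 1.90 on slide 1 and -2.42 on slide 2 in septum. Slide 3 in LV and slide 1 in septum hold the same lambs, and slide 2 holds other lambs of the same groups. The septum values are therefore not independent of the LV values. In LV slide 2 holds 1 cortisol array. No test of this contrast was made. For IDH1 the septum differences within slides were -1.21 on slide 1 and 1.82 on slide 2.

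**Figure D3:**
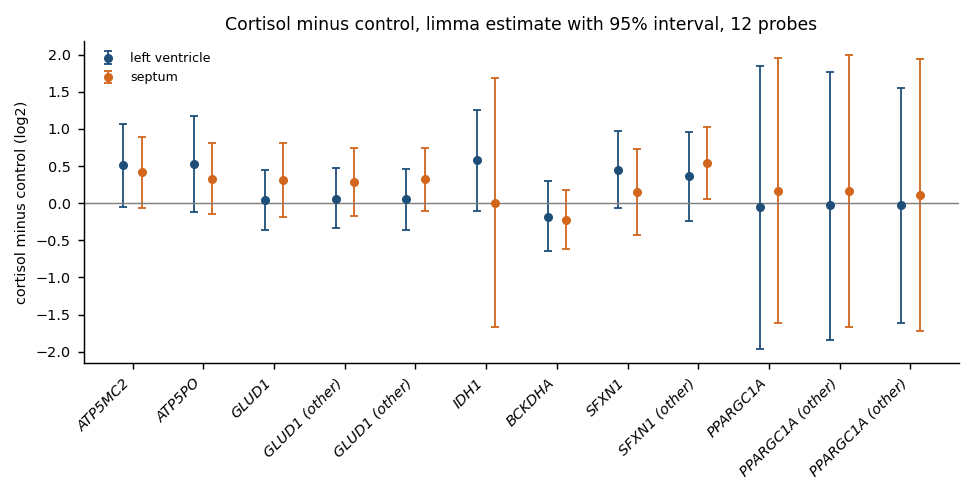
Cortisol minus control (y axis, log2) for the 12 member probes in LV and septum; points are limma estimates and bars their 95% intervals. All intervals include 0 except that of the second SFXN1 probe in septum, 0.05 to 1.03, whose adjusted p was 0.818.

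The cortisol effect was not shown to differ between the walls for any member. A test of that difference called 0 of 10069 probes (0%) with limma, and 38 at an unadjusted p under 0.05. The difference was -0.09 ± 0.33 for ATP5MC2, -0.58 ± 0.87 for IDH1 and 0.23 ± 1.27 for PPARGC1A (SE, limma adjusted p = 1 for each). With lamb as a random block the SE were 0.21, 0.54 and 0.59, and again 0 of 10069 probes passed. For GLUD1 the difference with that block was 0.27 ± 0.15 (limma unadjusted p = 0.0852, adjusted p = 0.998).

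Of the pathway genes around these members, 39 of 256 listed genes were named on the array besides the members, and none passed the cortisol test: 0 of 36 tested in LV and 0 of 34 in septum. Their median difference was -0.02 in LV and 0.07 in septum, against -0.01 and 0.03 over all probes. In complex I, NDUFA12 gave -0.07 and 0.10 and NDUFA2 gave -0.12 and 0.13 (LV, then septum). In complex II, SDHD gave -0.18 and -0.06. In complex IV, COX5A gave -0.37 ± 0.32 and -0.43 ± 0.35 (SE), and COX15 gave -0.33 and -0.13. ME1, which also makes NADPH, gave 0.12 and 0.16. Among carriers, SLC25A4, the ADP/ATP exchanger of heart, gave 0.30 ± 0.25 and 0.34 ± 0.19, TSPO gave -0.26 and -0.30, and SLC25A10 gave -0.57 ± 0.47 and 0.06 ± 0.38.

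Partners and known responsive genes of PPARGC1A gave no call either. The kinase subunit PRKAA2 differed by 0.35 ± 0.43 in LV and 0.43 ± 0.38 in septum (SE), the thyroid hormone receptor THRB by 0.18 and 0.26, the transcription factor YY1 by -0.17 and -0.04, and the transcription factor GABPA by -0.03 and 0.13. CPT1B, the muscle gate for fatty acid entry into mitochondria, differed by -0.37 ± 0.19 and -0.26 ± 0.18. CPT1A, the other form of that gate, differed by -0.39 ± 0.57 and -0.27 ± 0.44. VEGFA, a blood vessel growth factor, differed by 0.67 ± 0.34 and 0.63 ± 0.56, and SOD2, which removes superoxide in mitochondria, by -0.01 ± 0.26 and 0.26 ± 0.26.

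Between the walls, GLUD1 stood lower in septum. The lead probe read 1.84, 2.04, 2.16, 2.06 and 2.18 in LV control and 0.93, 1.14, 1.17, 1.36 and 1.64 in septum control. In cortisol lambs it read 2.24, 2.30, 2.35, 1.61 and 1.99 in LV and 1.50, 2.06, 1.76, 0.92 and 1.57 in septum. The control ranges did not overlap for any of the 3 GLUD1 probes, the only 3 of 12 member probes of which this held, against 4.94% of all probes. For the third GLUD1 probe they nearly touched, with a lowest LV control of -1.28 and a highest septum control of -1.29. The cortisol ranges overlapped for 12 of 12. Septum minus LV was -0.67 ± 0.14 (SE, 10 arrays per wall, limma adjusted p = 0.0397), 0.627 times the LV level, for the lead probe, where 0.397% of probes passed. It was -0.68 ± 0.13 (limma adjusted p = 0.035) for the overlapping probe and -0.34 ± 0.13 (limma adjusted p = 0.238) for the third.

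Within lambs the GLUD1 difference had 1 sign throughout. It was -0.91, -0.90, -0.99, -0.71 and -0.53 in control lambs 1 to 5 and -0.74, -0.24, -0.59, -0.69 and -0.42 in cortisol lambs 1 to 5, lower in septum in 10 of 10 lambs, as 3.14% of all probes were. With lamb as a random block in limma the adjusted p was 1.49e-05 for the lead probe and 0.00159 for the third, where 21.4% of probes passed. In most lambs the walls lay on different slides, so the lamb block does not separate wall from slide. The call depended on the settings without that block: it was made in 13 of all 35 alternatives run, those with the lamb block included. It was lost with slide as a fixed block (-0.81, limma adjusted p = 0.771) or a random block (-0.68, limma adjusted p = 0.191), with normexp background correction (-0.73, limma adjusted p = 0.493) and with the array median as the centre (-0.67, limma adjusted p = 0.0563). It was also lost in cortisol arrays only (-0.54, limma adjusted p = 1), and in 15 of the 20 fits that each left out 1 array (highest limma adjusted p = 0.0855). On slide 2 alone, which holds both walls, the difference was -0.75 (limma adjusted p = 0.589). Control lambs 3 and 5 and cortisol lamb 5 had both walls on that slide, with differences of -0.99, -0.53 and -0.42. These lambs were not tested on their own.

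BCKDHA stood higher in septum within each lamb. It read -0.80, -0.22, -0.49, -0.67 and -0.35 in LV control against -0.33, 0.17, -0.06, -0.05 and -0.01 in septum control. In cortisol lambs it read -0.75, -0.69, -0.44, -1.28 and -0.25 in LV against -0.43, -0.49, -0.28, -0.44 and 0.27 in septum. The ranges of the walls overlapped, but the difference within lambs was positive in 10 of 10, from 0.16 to 0.84. A difference of 1 sign in all 10 lambs, either way, was found for 7.36% of all probes. It was 0.43 ± 0.14 (SE, limma adjusted p = 0.161) without the lamb block and 0.43 ± 0.08 (limma adjusted p = 0.000756) with it, 1.35 times the LV level. With the block the call held in 10 of 10 fits that each left out 1 lamb (highest limma adjusted p = 0.00413). Without the lamb block, the difference was 0.27 within slide 2, and 0.30 with slide as a fixed block (limma adjusted p = 0.876). The slide 2 fit was unpaired and also held the septum array of cortisol lamb 4. Control lambs 3 and 5 and cortisol lamb 5 had both walls on slide 2, with differences of 0.43, 0.34 and 0.52. No fit held both lamb and slide, and these lambs were not tested on their own. In the other lambs wall and slide were not separated.

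**Figure D4:**
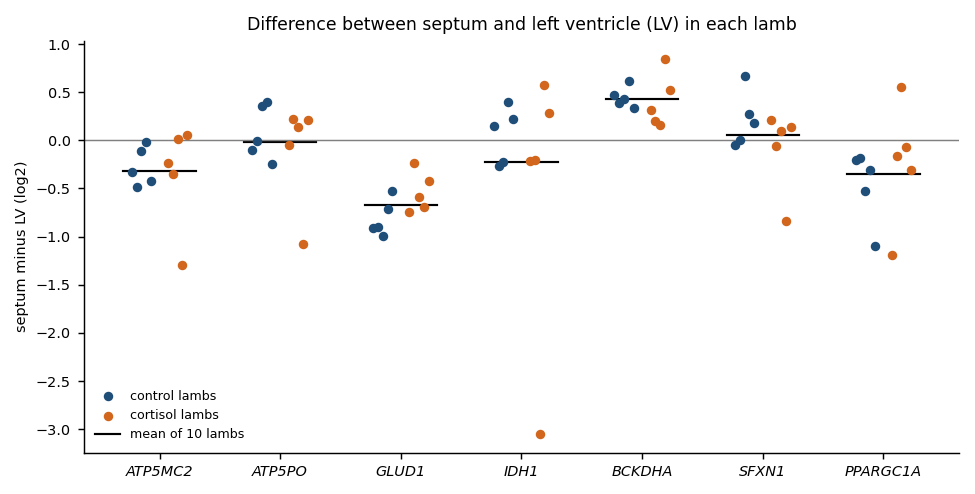
Septum minus LV (y axis, log2) for the lead probe of each gene, 1 point per lamb, with the mean of 10 lambs as a line. GLUD1 is below 0 and BCKDHA above 0 in 10 of 10 lambs; the lowest point is IDH1 in cortisol lamb 3 at -3.05.

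The other members gave smaller or less even differences between walls. ATP5MC2 was lower in septum in 8 of 10 lambs, by -0.32 ± 0.17 (SE, limma adjusted p = 0.447). With lamb as a random block the adjusted p was 0.042, with lamb as a fixed block the call was not made, and it held in 2 of the 10 random-block fits that each left out 1 lamb. Cortisol lamb 4, whose LV array is alone on slide 4, had the largest such difference at -1.29, and without that lamb the mean was -0.20. PPARGC1A was lower in septum in 9 of 10 lambs, by -0.35 ± 0.64 (limma adjusted p = 0.89, and 0.419 with the lamb block). The differences for ATP5PO, SFXN1 and IDH1 were -0.02 ± 0.19, 0.06 ± 0.18 and -0.23 ± 0.44, with 5, 4 and 5 of 10 lambs lower in septum.

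Of 35 tested pathway genes besides the members, 0 passed between walls without the lamb block and 4 passed with it (limma), where 21.4% of all probes did. VDAC1, the pore of the outer mitochondrial membrane, was 0.28 ± 0.07 higher in septum (SE). CPT1A was lower in septum at -1.14 ± 0.19, the ATP synthase subunit ATP5PD at -0.47 ± 0.10, and FABP4, a fatty acid binding protein of fat cells well above background on 10 of 20 arrays, at -2.27 ± 0.53 (SE). Some LV arrays read higher for fat cell markers. The summed level of their 5 named genes of 9 was 1.26 to 2.38 in LV control and 0.778 to 7.89 in LV cortisol, against 0.945 to 1.59 and 0.658 to 2.17 in septum, in multiples of the 75th percentile. Their brightest genes, PPARG and PLIN1, ranged from -1.53 to 2.00 and from -2.69 to -1.40 on the log2 scale. The part of fat cells in the differences between walls was not tested.

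Markers of other cell types were present in both walls. The summed level of the 6 named fibroblast genes of 14 was 99.6 to 150 in LV control, 88.5 to 249 in LV cortisol, 95.7 to 138 in septum control and 89.5 to 235 in septum cortisol, led by VIM and DCN. These sums do not show the collagens, which stood lower in septum with the lamb block, as GLUD1 did: COL1A1 by -0.58 ± 0.17, COL1A2 by -1.10 ± 0.18 and COL3A1 by -1.34 ± 0.19 (SE, limma adjusted p = 0.019, 0.000492 and 0.000127). Thus 3 of 6 fibroblast genes passed with the block, all lower, where 21.4% of all probes passed. Without it 0 of 6 passed, where 0.397% of all probes did. VIM, DCN and BGN gave 0.05, -0.03 and 0.00. Between cortisol and control 0 of 6 passed, and 6 of 6 differences were positive in each wall, with a median of 0.50 in LV and 0.60 in septum against -0.01 and 0.03 over all probes. Of 32 listed heart muscle genes 3 were named, MYH7, TPM1 and MB. With cortisol 3 of 3 differences were positive in each wall, with a median of 0.42 in LV and 0.31 in septum. Septum minus LV was positive for 0 of 3, with a median of -0.12 without the lamb block. In each of these comparisons 0 of 3 passed. The part of fibroblasts and of heart muscle cells in the members' differences was not tested. For the 5 named endothelial genes of 13, led by PECAM1 and KDR, the ranges were 13.1 to 15.9, 7.31 to 23.1, 12.9 to 15.4 and 9.81 to 24.5. The smooth muscle gene CNN1 ranged from 2.06 to 5.23 and the red cell gene HBB from 3.56 to 6.92 on the log2 scale. Myeloid genes, led by CTSS and FCER1G, summed to 0.769 to 3.24, and lymphocyte genes, led by CD3E and CD3D, to 0.0453 to 0.761. The red cell chaperone AHSP was well above background on 8 of 20 arrays.

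Whether the enzymes follow PPARGC1A was read over the 10 arrays of each wall, as 12 relations, with permutation p adjusted over all probes. None passed in either wall, where 0% of 9676 probes passed in LV and 0.0677% of 10339 in septum. The relation nearest to the threshold was an inverse one. In septum IDH1 read lower where PPARGC1A read higher: Pearson r = -0.90 (permutation p = 0.00031, adjusted p = 0.095) and Spearman rho = -0.93 (permutation p = 0.00037, adjusted p = 0.189). Septum arrays with PPARGC1A of 3.62 and 4.67 (control lamb 3 and cortisol lamb 3) had IDH1 of 1.51 and -0.23, but the array with PPARGC1A of 3.70 (cortisol lamb 1) had a middle IDH1 of 2.71, and without it r was -0.97 (permutation adjusted p = 0.0575). The array with PPARGC1A of 0.16 (cortisol lamb 4) had IDH1 of 4.39. An r below that of IDH1 was found for 0.135% of probes in septum. Without the 2 arrays farthest from the median PPARGC1A level r was -0.77 (permutation adjusted p = 0.93). Within slide 1 it was -0.84 over 6 arrays (permutation p = 0.0319, adjusted p = 0.355). Without the septum array of cortisol lamb 3 it was -0.84 (permutation adjusted p = 0.533).

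That relation passed or missed the threshold with the probe and the lambs used. With PPARGC1A probe 3 in place of the lead r was -0.93 (permutation adjusted p = 0.023), and without control lamb 2 r was -0.92 (permutation adjusted p = 0.0414). In the other alternatives the adjusted p was 0.05 or more, and with normexp background correction r was -0.68. In LV the IDH1 relation had the same sign, with r = -0.68 (permutation p = 0.0259, adjusted p = 0.431) and rho = -0.82 (permutation p = 0.00563, adjusted p = 0.407), and r was -0.28 within slide 3. LV and septum share the lambs and are not independent of each other.

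GLUD1 was the enzyme with the highest positive r, in LV: r = 0.77 (permutation p = 0.00729, adjusted p = 0.354) and rho = 0.70 (permutation p = 0.0297, adjusted p = 0.469). Its other probes gave 0.70 and 0.74. Without the 2 arrays farthest from the median PPARGC1A level r was 0.81, and within slide 3 it was 0.62. In septum r was 0.38 (permutation p = 0.278), and -0.03 without the 2 farthest arrays. A difference between the walls in this relation was not tested.

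**Figure D5:**
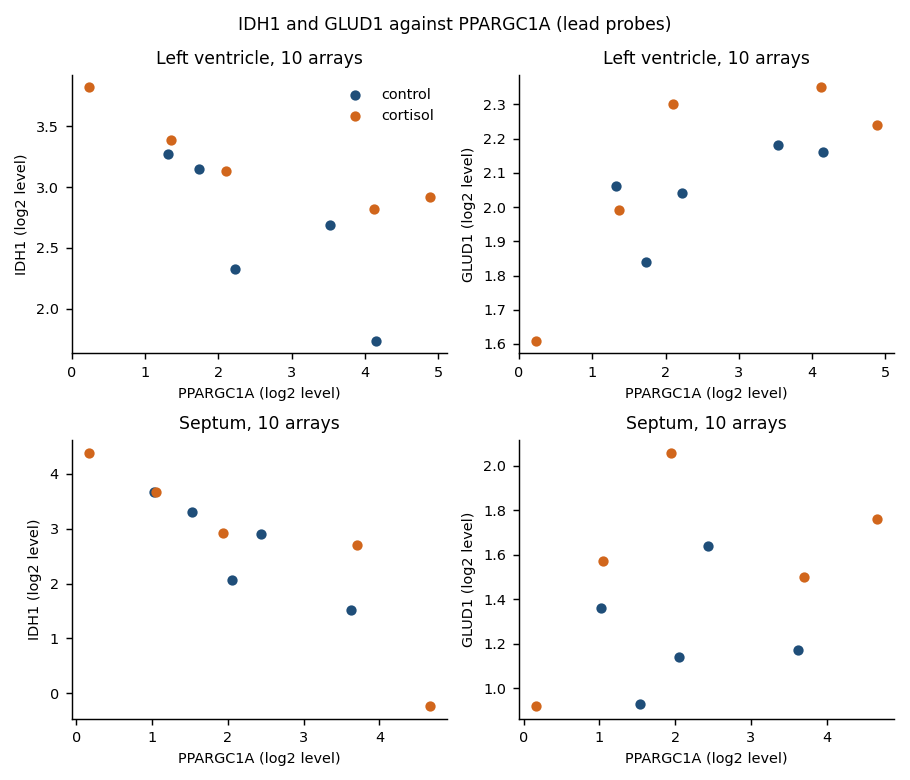
IDH1 (left) and GLUD1 (right) log2 level against the PPARGC1A log2 level on the 10 LV arrays (top) and 10 septum arrays (bottom), lead probes, coloured by treatment. IDH1 runs against PPARGC1A, with r of -0.68 in LV and -0.90 in septum; GLUD1 gives 0.77 and 0.38, and none of the 4 relations passed after adjustment.

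For the ATP synthase genes in LV, r was 0.07 for ATP5MC2 (permutation p = 0.839) and 0.07 for ATP5PO (permutation p = 0.843). In septum r was 0.58 and 0.54 (permutation p = 0.0807 and 0.109, adjusted p = 0.341 and 0.375). For BCKDHA r was 0.38 in LV and -0.13 in septum, and for SFXN1 -0.30 and 0.39 (permutation p from 0.272 to 0.73). The median r to PPARGC1A over all probes was -0.02 in LV and 0.05 in septum.

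The other named genes were also ordered by r to PPARGC1A, with the members left out of the order. Over the 20 arrays with the mean of each wall subtracted, the nearest of these 515 genes was SLC25A33, with r = 0.90. It encodes a carrier of pyrimidine nucleotides into mitochondria. It read 0.39, 0.20, 2.62, 0.11 and 2.02 in LV control and 2.11, 0.77, 1.49, 0.09 and 0.12 in LV cortisol, with the same high lambs as PPARGC1A. In septum it read 0.28, 0.55, 2.39, 0.02 and 1.25 in control lambs and 1.79, 0.15, 1.82, -0.03 and -0.29 in cortisol lambs. RCAN1, an inhibitor of calcineurin, followed with r = 0.85, the transcription factors JUND and HAND1 with 0.83 each, and POMC, a hormone precursor, with 0.79. RCAN1 read 3.14, 4.53, 4.99, 2.73 and 5.12 in LV control and 4.34, 3.75, 5.46, 2.18 and 2.95 in LV cortisol. Its order differed in part from that of PPARGC1A: control lamb 2 read above cortisol lamb 1, where PPARGC1A was highest. These r are descriptions over 20 arrays from 10 lambs, and genes were picked for them. At the other end of this order without members, named after their values were seen, stood SLC25A38 (-0.79), MADCAM1 (-0.78), FZD3 (-0.77), SLC25A20 (-0.75) and SLC39A7 (-0.73). The member IDH1, not ranked here, had r of -0.77 over the 20 arrays with group means subtracted.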

How the data were processed

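Total RNA of 20 tissue samples was measured on one-colour (Cy3) Agilent arrays. Per the file headers, Feature Extraction 10.1.1.1 made the processed spot intensity values, which were not normalized between arrays. The deposited value table holds log2 values, and the submitters' processing notes name limma. Column medians of that table lay between 6.71 and 6.72 for LV but between 9.49 and 9.54 for septum, so the walls appear to have been normalized separately; the method is not given in the sources used here, and the table served as an alternative within a wall. It held 0 columns of other samples.

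Each array's 75th percentile over non-control spots was subtracted on the log2 scale, and outlier spots (2 to 68 per array) were left out. A test took in the probes that were well above background on 5 of 10 arrays of a wall, or 10 of 20. Two-sided tests were made in R 4.3.3 by limma 3.58.1 (statmod 1.5.0) with Benjamini-Hochberg adjustment at 0.05. Correlations used 100000 permutations. Scripts were tested on simulated data. Per the labels the lambs were singletons, 5 per treatment. The number of arrays limits the precision.

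LV and septum arrays of one treatment and number were treated as 1 lamb because their residuals correlated (r 0.447 to 0.813 in 10 of 10 pairs). Control and cortisol arrays with one number were not, since a lamb had 1 treatment. Their r was still above 0.1 in 4 of 5 pairs in LV and 3 of 5 in septum, up to 0.288 and 0.273. In each wall the cortisol array of the same number had the highest r in 3 of 5 pairs. The cause of this was not tested.

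Names came from RefSeq accessions, gene identifiers, symbols and descriptions, brought to the sheep assembly ARS-UI_Ramb_v3.0. No coordinates were used. The members and gene lists were chosen with earlier results of these data known. Named were the members with all probes, and the 5 and 3 named genes, members left out, most like PPARGC1A and ATP5MC2. Pathway genes named were up to 3 of each list with the smallest p in each wall, and those passing between walls. The brightest 2 genes of each marker list were also named. Alternatives were other scaling, background correction, filters, slide and lamb blocks, other probes, and leaving out each array, with each lamb under the lamb block added after seeing the data.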

Additional observations from a re-analysis of the deposited data

Results flagged for a closer look

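In septum cortisol, BCKDHA in lamb 5 read 0.27, far above the other 4 arrays of the group: the gap to the next array was 0.72 of the group's range. It was 1 of 48 checks of 12 member probes in 4 groups for an array far from the others, and chance flags about 1 in 20 groups.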

How the results depend on the processing

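No cortisol result of a member passed under any alternative run, so the sign changes below are of differences that did not pass. Between the walls, 40 probes passed; 1 passed with normexp background correction, 99 with no filter on dim probes, 79 with probes well above background on all arrays, 0 with slide as a fixed block, 2 with slide as a random block, 0 on slide 2 alone, 136 in control arrays only and 0 in cortisol arrays only. With lamb as the replicate block 2151 passed (random) and 1850 (fixed). Leaving out 1 array gave 9 to 420, the highest without the LV array of cortisol lamb 5, and leaving out 1 lamb under the random lamb block gave 1506 to 2624. Among lead probes the block changed the calls of BCKDHA and, as a random block only, ATP5MC2, and among the other member probes as a random block that of GLUD1 probe 3. The replicate number as a block across control and cortisol left 0 probes passing in each wall. On slide 3 alone 2 probes passed the cortisol test in LV. One enzyme of 6, IDH1, passed in septum with PPARGC1A probe 3, and leaving out 1 array gave 0 or 1. The cause of these changes was not tested.

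Signs of the cortisol difference changed as follows. With normexp, GLUD1 in LV was -0.01, and PPARGC1A was -0.10 in septum and -0.11 averaged over both walls, where quantile normalization gave -0.01. With slide as a fixed block, BCKDHA in LV was 0.01 and PPARGC1A in LV 0.58 (0.10 as a random block), and the difference of the cortisol effect between walls was 0.08 for ATP5MC2 and -0.41 for PPARGC1A. On slide 3 alone PPARGC1A in LV was 1.94. On slide 2 alone the LV values were -0.28 for ATP5MC2, -0.32 for ATP5PO, 0.17 for BCKDHA and -0.18 for GLUD1. On that slide the septum values were -0.11 for ATP5PO, -0.16 for GLUD1, -2.42 for PPARGC1A and -0.21 for SFXN1. IDH1 in septum, at 0.00, has no sign to change and ranged from -1.21 on slide 1 to 1.82 on slide 2. The other SFXN1 probe gave 0.18 for the difference between walls. Leaving out 1 array, the ranges were -0.02 to 0.16 for GLUD1 and -0.64 to 0.52 for PPARGC1A in LV, and -0.42 to 0.71 for PPARGC1A in septum and -0.43 to 0.62 averaged. For the difference between walls they were -0.27 to 0.05 for ATP5MC2, -0.19 to 0.07 for BCKDHA, -1.0 to 0.15 for IDH1 and -0.36 to 0.81 for PPARGC1A.

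For septum minus LV, ATP5PO was 0.01 with quantile normalization, 0.05 with slide as a fixed block, 0.16 on slide 2 alone and 0.08 in control arrays only. IDH1 was 0.45, 0.32 and 0.06 under the last 3 of these, and SFXN1 was -0.09 in cortisol arrays only. Leaving out 1 array gave -0.10 to 0.07 for ATP5PO, -0.45 to 0.13 for IDH1 and -0.01 to 0.16 for SFXN1, and leaving out 1 lamb under the lamb block gave -0.06 to 0.11 for ATP5PO and -0.37 to 0.08 for IDH1. GLUD1 and BCKDHA kept their direction in every alternative run, from -0.81 to -0.34 and from 0.27 to 0.48.

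The r to PPARGC1A changed sign in LV for ATP5MC2 (-0.16 with quantile normalization, -0.22 with normexp, -0.21 without the 2 farthest arrays) and ATP5PO (-0.06, -0.09 and -0.20), and in septum for GLUD1 (-0.03 without the 2 farthest). Over 20 arrays with group means subtracted r was 0.03 for SFXN1 and 0.18 for BCKDHA. Leaving out 1 array gave -0.23 to 0.61 for ATP5MC2, -0.21 to 0.63 for ATP5PO and -0.06 to 0.57 for BCKDHA in LV, and -0.39 to 0.05 for BCKDHA in septum. IDH1 kept a negative r in both walls in every alternative run.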
